A study of Homo sapiens with 16 samples.

Results

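The genes of the hypoxia inducible factor (HIF) response were followed in a pair of human breast cancer cell lines exposed to hyperglycemia. They are 10 genes taken by symbol, by a rule that uses no measured value, though they were chosen with earlier results of these data known. The 10 are the oxygen-regulated subunits HIF1A and EPAS1, and the HIF target genes CA9, VEGFA, ADM, NDRG1, BNIP3, ANKRD37, EGLN3 and HILPDA. All 10 were found among the 18332 genes of the expression table. MDA-MB-231 and MDA-MB-468 are established lines that are ER-, that is, without the estrogen receptor. Each line was kept for 48 hours in medium with glucose at 5 mM, called low glucose, or at 25 mM, called high glucose and used to mimic hyperglycemia, before its RNA was sequenced. The 16 samples fall into 4 groups of 4 replicates. Per the methods, treatment media held no serum, and all cells had first been conditioned in low glucose. The sources used here give neither an oxygen level nor whether the replicates were separate cultures, so p-values measure the spread between these samples, which may be technical. MDA-MB-231 was maintained in DMEM and MDA-MB-468 in RPMI, and line and maintenance medium cannot be told apart.

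HIF is a transcription factor made of an oxygen-regulated alpha subunit and the constant partner ARNT. In oxygenated cells the prolyl hydroxylases of the EGLN family mark the alpha subunit, which the VHL ubiquitin ligase then sends to degradation. When oxygen is short the subunit persists, binds DNA at hypoxia response elements and turns on genes for glycolysis, pH control, blood vessel growth and mitochondrial turnover. Because this control acts on the protein, the mRNA level of HIF1A or EPAS1 is not a measure of HIF activity.

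The core of the hypoxia response element is ACGTG or GCGTG. It was searched on both strands in the RefSeq promoters of GRCh38.p14, each holding 250 bases before and 50 after the start that RefSeq gives, and 7 of the 10 genes had one. The gene spans printed further on are those of GENCODE, which reach further upstream for some genes, so that the windows of ANKRD37, EPAS1 and EGLN3 and the second of HIF1A lie inside the span. The 4 stretches shown here were chosen because they belong to the genes whose glucose response is described most closely or that hold several matches. They are written 5′ to 3′ on the strand of the gene with each match in capitals, and their positions are on GRCh37, where each window matched the genome exactly once. For BNIP3, ANKRD37 and ADM the bases of the window outside annotated exons are given. For CA9, whose match lies in an exon of a transcript of the opposite-strand gene ARHGEF39, only the 30 bases before the RefSeq start are given.
CA9, chr9:35673895-35673924, plus strand: tcgtttccaatgCACGTacagcccgtacac
BNIP3, chr10:133795472-133795677, minus strand: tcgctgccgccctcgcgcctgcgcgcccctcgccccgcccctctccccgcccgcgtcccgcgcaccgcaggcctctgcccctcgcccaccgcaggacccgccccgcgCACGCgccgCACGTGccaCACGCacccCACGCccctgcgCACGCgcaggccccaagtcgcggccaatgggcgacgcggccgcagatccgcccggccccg
ANKRD37, chr4:186317745-186317964, plus strand: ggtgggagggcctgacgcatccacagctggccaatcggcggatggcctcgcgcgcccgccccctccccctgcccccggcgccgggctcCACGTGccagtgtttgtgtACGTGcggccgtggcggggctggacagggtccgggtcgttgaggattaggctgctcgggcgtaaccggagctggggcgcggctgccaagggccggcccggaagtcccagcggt
ADM, chr11:10326425-10326619, plus strand: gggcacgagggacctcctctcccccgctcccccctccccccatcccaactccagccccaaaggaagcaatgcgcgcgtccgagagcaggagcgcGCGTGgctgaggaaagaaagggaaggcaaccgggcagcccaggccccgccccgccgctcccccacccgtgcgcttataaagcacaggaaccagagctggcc

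The CA9 window held 1 match, an ACGTG on the opposite strand at position -18 from the RefSeq start, which reads CACGT on the printed strand. BNIP3 held 6 matches between positions -143 and -104, with a CACGTG that counts once on each strand and 4 GCGTG on the opposite strand. ANKRD37 held 3 matches, a CACGTG counted on each strand and an ACGTG at -143. ADM held a GCGTG at -101, EPAS1 a GCGTG at -117 and HIF1A a GCGTG at -204 in the first of its 2 promoters. The second HIF1A promoter and that of EGLN3 held none of these letters. ACGTG or GCGTG was present in 6 of the 8 promoters of these genes and in 48.4% of all 35116 promoters of the same length. ACGTG alone was in 3 of 8 against 21.4%, GCGTG in 4 of 8 against 36.5%, and CACGTG, which contains ACGTG, in 2 of 8 against 7.26%. Promoters with 3 or more matches made up 10.1% of all. A match is a run of letters, not a measured binding site.

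Values are normalized reads, that is, reads per gene divided by a size factor of the library. The libraries held between 14094597 and 24425916 recovered reads, so that 3 reads, the detection floor used here, corresponded to 0.123 to 0.213 CPM (reads scaled to library size). The floor covers counting error only. Fold changes are differences of the mean of log2(normalized reads + 1), which understates the change of genes with few reads, and a gene was called when its limma adjusted p was under 0.05. The labelled lines carried their known markers. In low glucose vimentin (VIM) had a mean of 96228 normalized reads in MDA-MB-231 cells and 21.5 in MDA-MB-468 cells, whereas E-cadherin (CDH1) had 5.51 and 2007. ESR1, the estrogen receptor gene, had means of 1.31 and 57.9 in that order.

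The lines differed more in these genes than either responded to glucose, as the plot of all samples shows. In low glucose MDA-MB-231 held more HIF1A, VEGFA, NDRG1, BNIP3 and ANKRD37, and MDA-MB-468 held more EPAS1, CA9, ADM, EGLN3 and HILPDA. NDRG1 showed the widest gap, 40.9-fold, and EPAS1 the narrowest, 1.30-fold. All 10 genes were called, against 85.4% of the 17115 genes tested (45.0% higher and 40.4% lower in MDA-MB-468), and the groups overlapped for none of them, where 80.5% of all genes did not overlap. CA9 entered this comparison only through MDA-MB-468, where it had a mean of 1.22 CPM in low glucose, since its 0.19 CPM in MDA-MB-231 is under the filter of 0.5 CPM. Their median absolute log2 difference was 2.20, beside 0.94 over all genes tested, while the median absolute change with glucose was 0.09 (all genes 0.10) in the MDA-MB-231 cells and 0.32 (all genes 0.21) in the MDA-MB-468 cells. A wider gap between lines than between glucose levels was thus also seen over all genes.

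**Figure D1:**
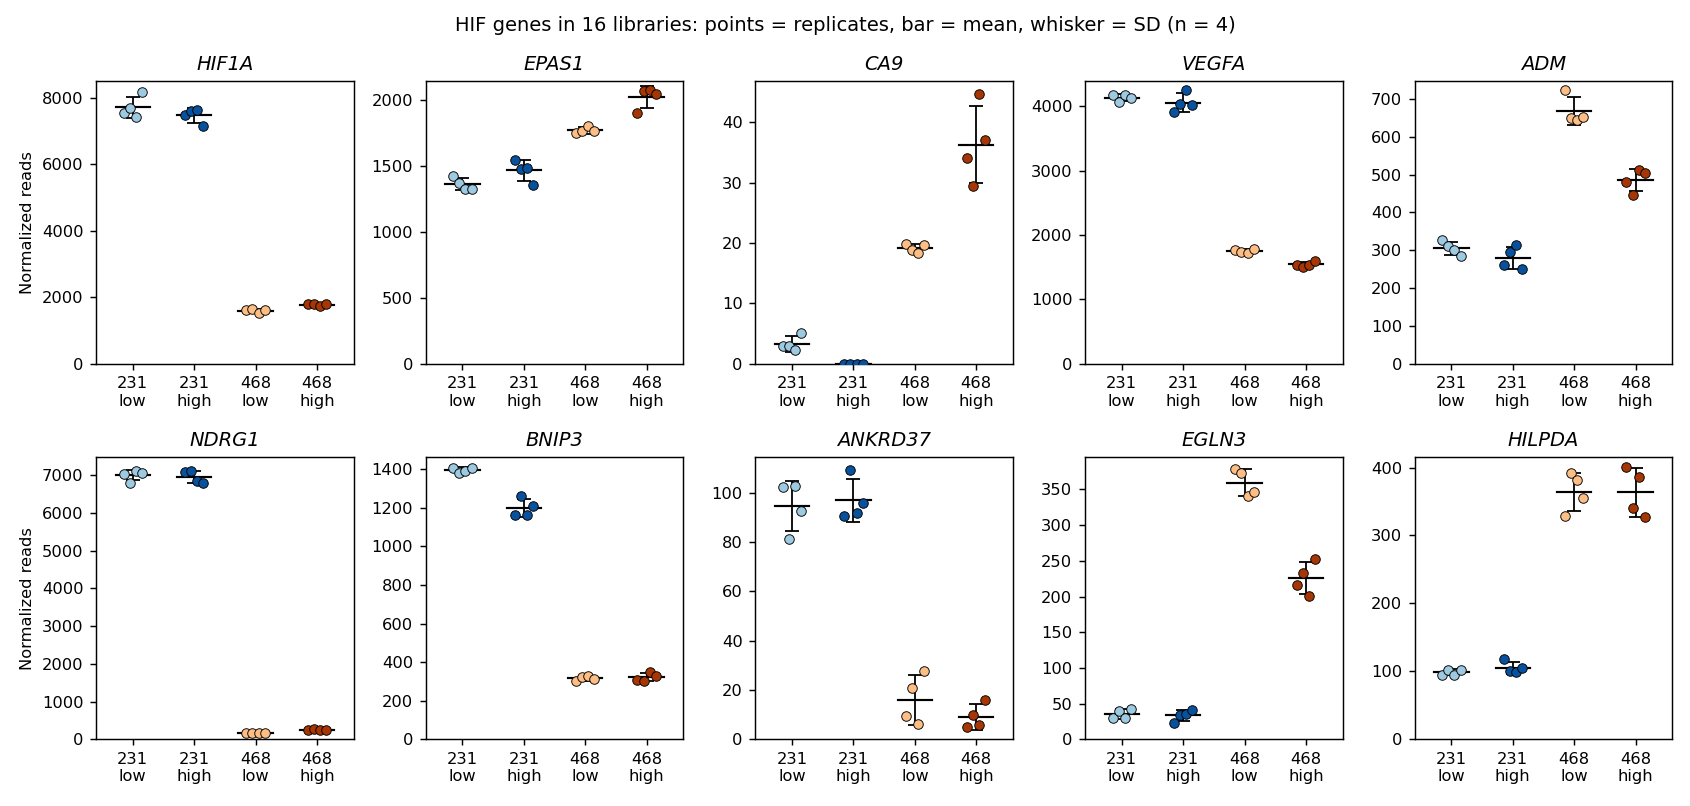
Normalized reads (linear axis from 0, a separate scale for each gene) of the 10 HIF genes in each library, with the tick labels giving the line by the end of its name and the glucose level; points are the 4 replicates, the bar is their mean and the whisker the SD. In every panel the distance between the lines in low glucose exceeds the spread of the replicates, and CA9 is at 0 in all 4 high-glucose MDA-MB-231 libraries.

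HIF1A (ENSG00000100644, chromosome 14, 62162231 to 62214977 on GRCh37, plus strand), the HIF subunit present in most cell types, had 7550, 7703, 7442 and 8177 normalized reads in the 4 low-glucose MDA-MB-231 samples. In low-glucose MDA-MB-468 it had 1624, 1640, 1525 and 1606. Every MDA-MB-231 sample lay above every MDA-MB-468 sample, and the level was 4.82-fold lower in MDA-MB-468 (log2 difference -2.27, SE 0.03, limma adjusted p = 8.02e-20). EPAS1 (ENSG00000116016, chromosome 2, 46520806 to 46613836, plus strand), which encodes the other main HIF alpha subunit and is best known from endothelium, went the other way. Its mean was 1363 ± 47.4 (SD, n = 4) in low-glucose MDA-MB-231 and 1771 ± 23.8 in low-glucose MDA-MB-468, a log2 difference of 0.38 (SE 0.04, limma adjusted p = 7.96e-08). In these bulk samples a change in the share of cells that express a gene and a change in RNA per cell cannot be told apart.

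NDRG1 (ENSG00000104419, chromosome 8, 134249418 to 134314265, minus strand), a stress-responsive differentiation gene, had 7025, 6799, 7116 and 7064 normalized reads in low-glucose MDA-MB-231 but 161, 180, 163 and 178 in low-glucose MDA-MB-468. The log2 difference was -5.35 (SE 0.04, limma adjusted p = 1.13e-22). BNIP3 (ENSG00000176171, chromosome 10, 133781188 to 133795471, minus strand), a mitochondrial protein that promotes mitophagy, had means of 1395 ± 13.2 and 316 ± 11.8 in the same groups and was 4.41-fold lower in MDA-MB-468. VEGFA (ENSG00000112715, chromosome 6, 43737921 to 43754224, plus strand), the vascular endothelial growth factor, had means of 4133 ± 50.6 and 1749 ± 27.8 and was 2.36-fold lower. These genes shared the direction of HIF1A. HIF1A shares 148 exonic bases, and HILPDA 186, with another gene on the same strand, and neither of those genes had a group mean above 22.8 normalized reads.

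EGLN3 (ENSG00000129521, chromosome 14, 34393433 to 34931980, minus strand), a HIF prolyl hydroxylase that is itself a HIF target, had 30.0, 39.1, 30.2 and 43.2 normalized reads in low-glucose MDA-MB-231 and 378, 373, 341 and 346 in low-glucose MDA-MB-468. It was 9.95-fold higher in MDA-MB-468 (log2 difference 3.32, SE 0.15, limma adjusted p = 8.38e-13). HILPDA (ENSG00000135245, chromosome 7, 128095903 to 128098472, plus strand), a lipid droplet protein that inhibits lipolysis, was 3.67-fold higher, with means of 98.5 ± 4.44 and 364 ± 28.4. ADM (ENSG00000148926, chromosome 11, 10326620 to 10328944, plus strand), the vasodilator peptide adrenomedullin, was 2.18-fold higher, with means of 306 ± 17.3 and 668 ± 37.4. CA9 (ENSG00000107159, chromosome 9, 35673925 to 35681156, plus strand), a cell-surface carbonic anhydrase that is widely used as a hypoxia marker, was low in both lines and fitted as 4.84-fold higher in MDA-MB-468, with means of 3.29 ± 1.27 and 19.2 ± 0.70. ANKRD37 (ENSG00000186352, chromosome 4, 186317175 to 186321782, plus strand), an ankyrin repeat gene, was 6.45-fold lower in MDA-MB-468, where its 4 values (9.49, 21.0, 6.13 and 27.8) were more scattered than in MDA-MB-231 (102, 81.2, 103 and 92.5).

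**Figure D2:**
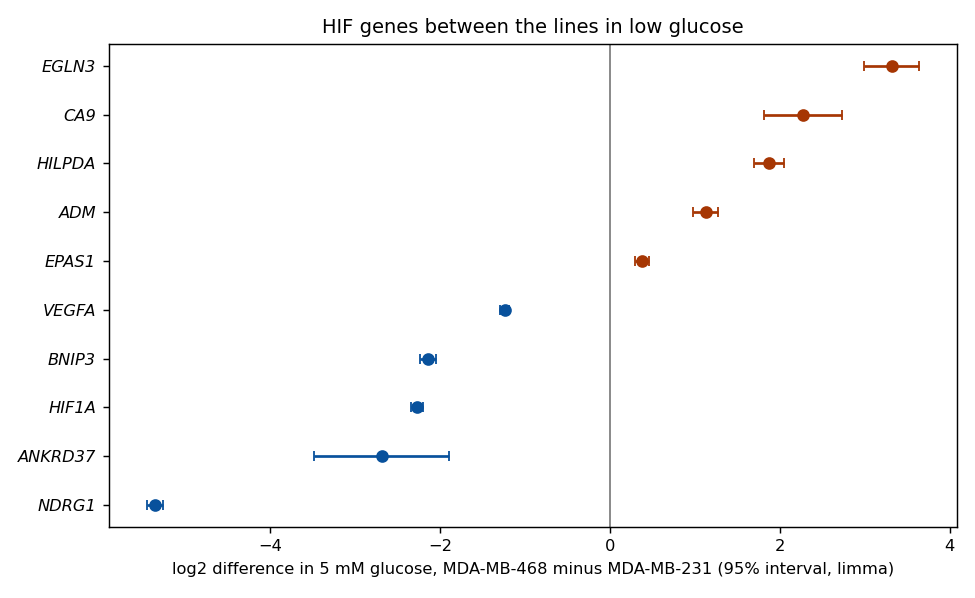
Difference between the lines in 5 mM glucose for the 10 HIF genes, as the log2 difference MDA-MB-468 minus MDA-MB-231 (horizontal axis) with its 95% interval from limma; red marks genes higher in MDA-MB-468 and blue genes higher in MDA-MB-231. The genes run from 3.32 for EGLN3 down to -5.35 for NDRG1, and no interval reaches 0.

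The order of the genes also changed between the lines when levels were divided by the length of the canonical transcript. In low-glucose MDA-MB-231 the level was 2314 normalized reads per kb for NDRG1, 1956 for HIF1A, 1145 for VEGFA and 905 for BNIP3. EPAS1 followed with 264, ADM with 205, ANKRD37 with 121, HILPDA with 72.2, EGLN3 with 13.2 and CA9 with 2.13 reads per kb. No neighbours in that order came within their SDs of each other, and high glucose left the order as it was. In low-glucose MDA-MB-468 VEGFA was first with 485 reads per kb, followed by ADM (448), HIF1A (405), EPAS1 (344), HILPDA (267), BNIP3 (205), EGLN3 (133), NDRG1 (56.3), ANKRD37 (20.6) and CA9 (12.4). There, ANKRD37 and CA9 did not differ beyond their SDs of 12.9 and 0.45 reads per kb. In high-glucose MDA-MB-468 HIF1A (451 reads per kb) stood first, ahead of VEGFA (428), EPAS1 (393) and ADM (326), and CA9 (23.5) stood above ANKRD37 (11.6). EGLN3 and NDRG1, at 83.4 ± 8.30 and 82.8 ± 5.16 reads per kb, were not separated by their SDs there.

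The next comparison asked whether high glucose altered these genes in MDA-MB-231. BNIP3 was downregulated by 14.2%, CA9 fell from a trace to no reads, and the 8 other genes did not pass the test. Thus 1 of the 9 genes with enough reads was called, none up and 1 down, where limma called 15.1% of the 14884 genes tested, 5.71% up and 9.37% down. Quantile rescaling changed that balance from 850 up and 1395 down to 1027 up and 1114 down. The median log2 fold change of the 9 genes was -0.03, beside 0.0017 for all genes.

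BNIP3 had 1407, 1380, 1389 and 1405 normalized reads in low glucose and 1162, 1259, 1162 and 1207 in high glucose. All high-glucose values lay below all low-glucose values, and the glucose groups did not overlap for 18.7% of all genes tested. The log2 fold change was -0.22 (SE 0.04, limma adjusted p = 0.000713), and it stayed between -0.25 and -0.20 and past the threshold under each of 20 alternatives.

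CA9 was below the CPM filter in MDA-MB-231, so it was tested apart from the other genes, by a test chosen after seeing the data. The 4 low-glucose libraries held 4, 3, 2 and 5 CA9 reads (2.86, 2.94, 2.24 and 5.14 normalized reads). The 4 high-glucose libraries held 0. Each low-glucose library had reads assigned to CA9 and no high-glucose library did. Of the low-glucose counts, 2 lies under the detection floor of 3 reads and 3 lies at it. Whether reads of the overlapping gene ARHGEF39, described further on, are among them was not tested. The 14 reads in all put the low-glucose level 4.50-fold above the floor of 3 reads taken over the high-glucose group. Counting error of the 14 reads is not included in that ratio. An exact permutation test, two-sided, gave p = 0.0286, the smallest value possible with 4 samples against 4. Without the filter, limma gave an adjusted p of 0.00382, in a fit where the high-glucose group had no spread.

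The subunits themselves moved little in this line. HIF1A had means of 7718 ± 324 in low and 7472 ± 225 in high glucose (log2 fold change -0.05, 95% interval -0.12 to 0.02, limma adjusted p = 0.407). EPAS1 had 1426, 1374, 1325 and 1328 normalized reads in low glucose and 1549, 1478, 1483 and 1357 in high glucose, so that 1 high-glucose sample fell inside the low-glucose range. Its change was 0.10 on the log2 scale (SE 0.04, limma adjusted p = 0.127) and passed the threshold without high-glucose replicate 4, the lowest of that group (0.14, limma adjusted p = 0.0426). For NDRG1, the most abundant of the 10 per length here, the 95% interval of the log2 fold change was -0.07 to 0.05, and for VEGFA it was -0.10 to 0.04. The intervals were wider for ADM (-0.29 to 0.03), HILPDA (-0.13 to 0.31), ANKRD37 (-0.20 to 0.28) and EGLN3 (-0.53 to 0.34), which have fewer reads.

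In MDA-MB-468, 7 of the 10 genes were called. HIF1A, EPAS1, CA9 and NDRG1 were upregulated, and VEGFA, ADM and EGLN3 were downregulated. BNIP3, ANKRD37 and HILPDA did not pass the test. In this line limma called 47.6% of 15757 genes (24.9% up and 22.7% down), and nothing is read from the count itself. The 7 called genes were also those whose groups did not overlap, as was the case for 42.5% of all genes. Each of the 7 was called with the same sign under all 20 alternatives. The median log2 fold change of the 10 genes was 0.01 because rises and falls balanced.

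Both HIF alpha subunits were higher in high glucose. HIF1A had 1624, 1640, 1525 and 1606 normalized reads in low glucose and 1797, 1783, 1724 and 1809 in high glucose, a rise of 11.2% (95% interval 5.59 to 17.2%, limma adjusted p = 0.00190). EPAS1 had 1749, 1766, 1805 and 1763 in low glucose and 1901, 2067, 2076 and 2050 in high glucose, a rise of 14.2% (95% interval 8.33 to 20.4%, limma adjusted p = 0.000332). For both genes every high-glucose sample lay above every low-glucose sample. The rises were smaller than those of the upregulated targets NDRG1 and CA9.

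NDRG1 had 161, 180, 163 and 178 normalized reads in low glucose and 249, 273, 239 and 241 in high glucose. Its groups were well apart, with a rise of 46.8% (log2 fold change 0.55, SE 0.08, limma adjusted p = 1.86e-05), although its level remained far below that of MDA-MB-231. CA9 had 19.8, 18.8, 18.4 and 19.8 normalized reads in low glucose and 34.0, 29.5, 44.6 and 37.1 in high glucose, from 85 and 145 reads in all. Every high-glucose value was above every low-glucose value, and the log2 fold change was 0.87 (95% interval 0.44 to 1.30, limma adjusted p = 0.00195).

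CA9 shares 571 exonic bases with ARHGEF39 on the opposite strand, and use of strand in the counting is not given in the sources used here. ARHGEF39 had means of 90.7 and 73.3 normalized reads in low and high glucose in MDA-MB-231 (limma adjusted p = 0.149) and 412 and 474 in MDA-MB-468 (log2 fold change 0.20, limma adjusted p = 0.0266). It moved in the direction of CA9 in each line, and its part in the CA9 values was not tested.

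The downregulated genes were a secreted factor, a peptide hormone and a hydroxylase. EGLN3 had 378, 373, 341 and 346 normalized reads in low glucose and 217, 233, 200 and 253 in high glucose, which fell by 37.3% (log2 fold change -0.67, SE 0.08, limma adjusted p = 1.91e-06). ADM had 724, 649, 645 and 653 in low glucose and 480, 447, 513 and 505 in high glucose (log2 fold change -0.46, SE 0.06, limma adjusted p = 5.30e-06). VEGFA had 1767, 1735, 1716 and 1776 in low glucose and 1537, 1509, 1537 and 1592 in high glucose (log2 fold change -0.18, SE 0.03, limma adjusted p = 0.000324). In each of these genes the lowest low-glucose sample was above the highest high-glucose sample. EGLN3 and ADM, which were the more abundant in this line, thus fell toward the MDA-MB-231 level, while VEGFA, the less abundant here, moved further from it.

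The remaining genes gave intervals that include 0. BNIP3 had means of 316 ± 11.8 and 323 ± 20.0 in low and high glucose, with a 95% interval of the log2 fold change from -0.10 to 0.17. HILPDA had 364 ± 28.4 and 363 ± 35.4, with an interval from -0.17 to 0.15. ANKRD37 rested on few reads, 12, 19, 7 and 31 in the low-glucose and 5, 9, 5 and 19 in the high-glucose libraries, and its interval of -1.65 to 0.30 was the widest of the 10. It also shares 909 exonic bases with UFSP2 on the opposite strand, whose means of 434 and 425 normalized reads were not called different (limma adjusted p = 0.680).

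**Figure D3:**
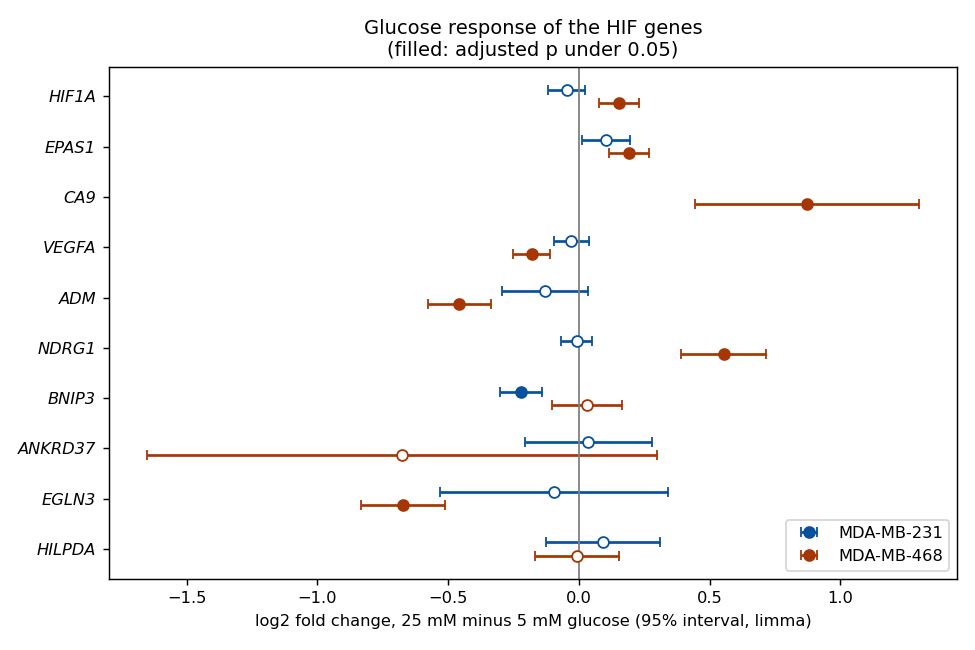
Log2 fold change of each HIF gene from 5 mM to 25 mM glucose (horizontal axis) in MDA-MB-231 (blue) and MDA-MB-468 (red), with 95% intervals from limma; filled points have an adjusted p under 0.05, and CA9 in MDA-MB-231 is absent because it was below the filter. In MDA-MB-468 the points spread from -0.68 to 0.87, whereas the 9 points of MDA-MB-231 lie between -0.22 and 0.10.

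Whether the response differed between the lines was tested directly, as the interaction of line and glucose over all 16 samples. It differed for 6 of the 10 genes, against 30.9% of the 17115 genes tested (17.0% higher and 13.9% lower in MDA-MB-468). The response of HIF1A, CA9, NDRG1 and BNIP3 was higher in MDA-MB-468, and that of VEGFA and ADM was lower. For NDRG1 the difference of the log2 fold changes was 0.56 (SE 0.06, limma adjusted p = 3.71e-06), for BNIP3 0.25 (SE 0.06, limma adjusted p = 0.00531) and for HIF1A 0.20 (SE 0.05, limma adjusted p = 0.00303). For ADM it was -0.33 (SE 0.10, limma adjusted p = 0.0197) and for VEGFA -0.15 (SE 0.04, limma adjusted p = 0.00521).

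CA9 fell to no reads in one line and rose in the other. It entered this test only through MDA-MB-468, because it was below the filter in MDA-MB-231, and without it the count is 5 of 9 genes. Its fitted difference of 2.93 (SE 0.31, limma adjusted p = 1.77e-06) depends on the pseudocount, because 1 group is at 0, and ranged from 1.48 to 5.76 over 28 alternatives, all past the threshold. EPAS1 was called in MDA-MB-468 only, but its difference between the lines was 0.09 (95% interval -0.03 to 0.20, limma adjusted p = 0.264), so the responses were not shown to differ. EGLN3 was just outside the threshold (-0.58, SE 0.22, limma adjusted p = 0.0514) and inside it under 12 of the 28 alternatives, with adjusted p from 0.00501 to 0.104. ANKRD37 (95% interval -1.83 to 0.41) and HILPDA (-0.34 to 0.15) were not called under any of them.

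The genes whose pattern was most like those of the subunits and of CA9 were looked up, as a description with no test. Likeness was Pearson's r of log2(normalized reads + 1) over the 16 samples, centered within each line, so it reflects the glucose response and the spread of replicates that share libraries. For HIF1A they were MCTS1 (r = 0.942), PPP1CC (r = 0.914) and ZNF207 (r = 0.911). For EPAS1 they were CDC42SE1 (r = 0.925), SLC35C1 (r = 0.910) and EIF2AK3 (r = 0.905), and for CA9 they were CHAF1B (r = 0.982), KIF2C (r = 0.962) and KIF4A (r = 0.961). The CA9 pattern includes MDA-MB-231, where CA9 was below the filter. Its log2 difference there, -2.06 from 14 reads to 0, depends on the pseudocount and is larger in size than the 0.87 in MDA-MB-468. None of the 10 HIF genes was among these 9.

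The other genes of the pathway were described in 3 lists, whose medians are drawn with their genes. Because the lists were written with earlier results of these data known, their counts are a description only. The first holds 14 HIF subunits and oxygen-sensing genes. In MDA-MB-231 1 of its 13 tested genes was called, the coactivator CREBBP (log2 fold change -0.12, limma adjusted p = 0.0491), and 15 of 20 alternatives lost that call. In MDA-MB-468 5 of 14 were upregulated and 4 downregulated, beside 24.9% and 22.7% of all genes tested in that line. The rises included RBX1 (0.41) and ELOB (0.33), parts of the VHL ubiquitin ligase, and HIF1AN (0.30), the asparaginyl hydroxylase that blocks HIF coactivator binding. Other parts of that ligase had lower means in high glucose, but their glucose groups overlapped. VHL had 647 ± 32.1 and 627 ± 42.7 normalized reads, ELOC 826 ± 59.5 and 806 ± 36.3, and CUL2 763 ± 30.9 and 711 ± 34.2. Unlike EGLN3, the prolyl hydroxylases EGLN1 and EGLN2 had higher means in high glucose and were among the rises. EGLN1 had 747 ± 37.8 and 817 ± 33.1 normalized reads, and EGLN2 1469 ± 81.1 and 1666 ± 83.4. The falls included CITED2 (-0.58), which competes with HIF for EP300, the coactivator EP300 itself (-0.24) and the HIF partner ARNT (-0.17).

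The second list holds 23 genes of glucose uptake and glycolysis that HIF is known to induce. In MDA-MB-231 11 of 23 were downregulated and none upregulated, beside 9.37% and 5.71% of all genes tested, 21 had a lower mean in high glucose, and the median log2 fold change was -0.11. The number that fell ranged from 7 to 16 over 20 alternatives, and no gene rose under any of them. LDHA, the lactate dehydrogenase subunit, fell from 15619 ± 358 to 12740 ± 299 normalized reads (log2 fold change -0.29, SE 0.03, limma adjusted p = 1.00e-06). The glucose transporter SLC2A1 fell from 9452 ± 426 to 7853 ± 228 (-0.27), and the aldolase ALDOC from 228 ± 13.8 to 174 ± 15.0 (-0.39). In MDA-MB-468, 10 of the 23 genes were upregulated and 7 downregulated (all genes 24.9% and 22.7%), with a median of 0.05. PFKFB3, a kinase that stimulates glycolysis, rose from 469 ± 15.7 to 641 ± 29.8 (0.45), the hexokinase HK1 from 3182 ± 42.4 to 4242 ± 90.1 (0.41), and the lactate exporter SLC16A3 from 331 ± 27.7 to 416 ± 23.8 (0.33). The enolase ENO2 (-0.48), the glycogen synthase GYS1 (-0.25) and the pyruvate dehydrogenase kinase PDK1 (-0.24) fell, and 6 of 20 alternatives lost the call for PDK1. The glucose transporter SLC2A3, named after its values were seen, had 21.4, 27.6, 24.5 and 20.7 normalized reads in low glucose and 6.81, 1.09, 2.29 and 4.21 in high glucose in this line (-2.58, SE 0.41, limma adjusted p = 7.02e-05). SLC2A3 entered that test only through the low-glucose samples. In high glucose it was under the read filter, with 7, 1, 2 and 5 reads. Its log2 fold change ranged from -2.89 to -1.77 over 20 alternatives, so the size of the fall is uncertain. The other line had a mean of 1351 for this gene in low glucose and a log2 fold change of 0.05 (limma adjusted p = 0.522).

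**Figure D4:**
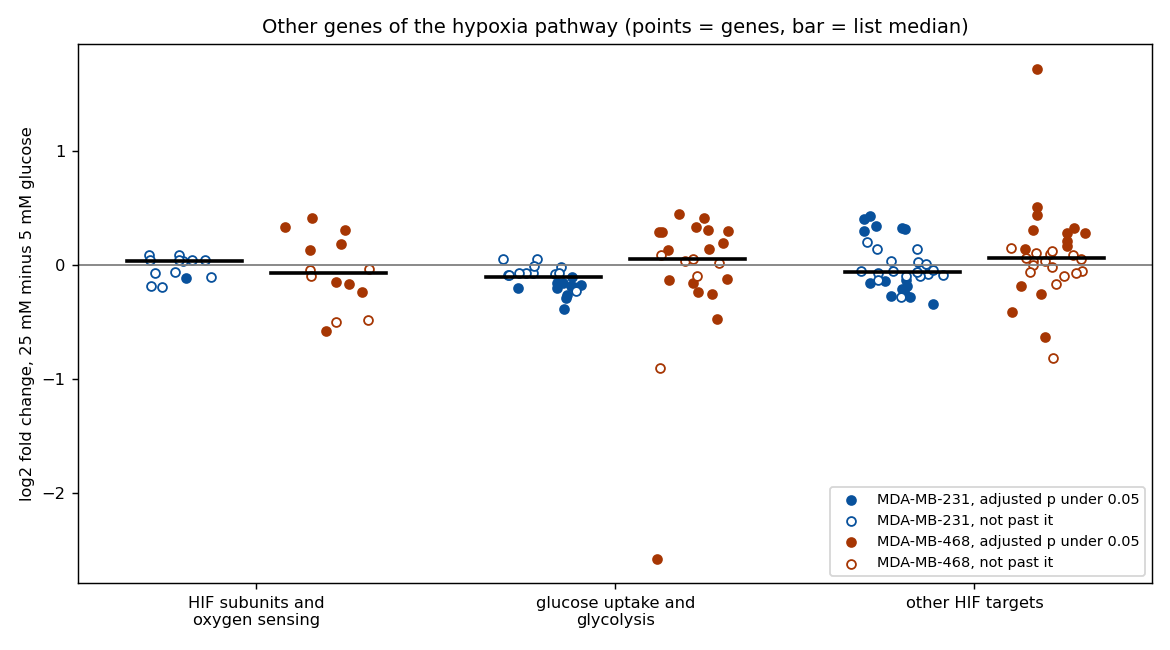
Log2 fold change from 5 mM to 25 mM glucose (vertical axis) of the genes in 3 HIF pathway lists, for MDA-MB-231 (blue) and MDA-MB-468 (red); each point is a gene, filled when its limma adjusted p is under 0.05, and the bar is the list's median. The glycolysis genes of MDA-MB-231 lie mostly below 0 (median -0.11), and those of MDA-MB-468 scatter on both sides (median 0.05). SLC2A3, under the read filter in high-glucose MDA-MB-468, is at -2.58.

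The third list holds 34 other HIF targets. In MDA-MB-231 6 of 33 were upregulated and 9 downregulated (all genes 5.71% and 9.37%), with a median log2 fold change of -0.06. The stress genes HMOX1 (0.43), which degrades heme, and DDIT4 (0.40), an inhibitor of mTOR signaling, rose, as did PLIN2 (0.34), a lipid droplet coat protein. The matrix crosslinking enzyme LOXL2 (-0.34), the mitochondrial adenylate kinase AK4 (-0.28) and the carbonic anhydrase CA12 (-0.27) fell. In MDA-MB-468 10 of 31 were upregulated and 4 downregulated, with a median of 0.06, and the share called was near the 47.6% of all genes. PPP1R3C (0.51), which targets a phosphatase to glycogen, P4HA2 (0.43), a collagen prolyl hydroxylase, and AK4 (0.33) rose. The secreted glycoprotein STC2 fell from 2733 ± 112 to 1766 ± 25.3 normalized reads (-0.63), and CCNG2 (-0.41) and JMJD6 (-0.25) fell as well.

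Some pathway genes moved in opposite directions in the lines. CA9 was below the filter in MDA-MB-231, where limma without the filter had it lower (limma adjusted p = 0.00382), and it was called up in MDA-MB-468. None of the 9 HIF genes tested in both lines was called in both. Of the 23 glycolysis genes 8 were, 3 down in both and 5 down in MDA-MB-231 but up in MDA-MB-468. The 5, named here after their values were seen, were PFKL, PFKFB3, TPI1, PGAM1 and GBE1, with differences of the log2 fold changes between 0.33 and 0.65. Of the 31 other targets tested in both lines 5 were called in both. DDIT4 was up in both, and CA12, PLOD1, ERO1A and AK4, also named after their values were seen, were down in MDA-MB-231 and up in MDA-MB-468. ERO1A lost its call in 4 of 20 alternatives in each line, PFKL in 1 of 20 in MDA-MB-231 and 2 of 20 in MDA-MB-468, and TPI1, GBE1 and PLOD1 in 1 of 20 in MDA-MB-231. CA12, a carbonic anhydrase like CA9, had 11.9, 14.4, 6.13 and 7.19 normalized reads in low-glucose and 35.0, 28.4, 41.2 and 29.5 in high-glucose MDA-MB-468, and a difference between the lines of 1.99 (SE 0.27, limma adjusted p = 2.61e-05). Over all genes tested in both lines, 1267 of 13573 were called in both, and 407 of these were down in MDA-MB-231 and up in MDA-MB-468. In the interaction test 13 of the 23 glycolysis genes had a higher response in MDA-MB-468 and 2 a lower one, where 17.0% of all genes were higher and 13.9% lower. Among the other targets 13 of 33 were higher and 6 lower, and among the oxygen-sensing genes 4 of 14 were higher and 2 lower.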

How the data were processed

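Per the study's methods, the authors trimmed reads, aligned them with TopHat to hg19 and an Ensembl annotation, and used DESeq2; the submitters' processing notes name hg38 and edgeR, and the counting program and its strand setting are not given in the sources used here. What was deposited is a normalized signal for each gene: its read count divided by a size factor of the library. In each library 100% of values were whole multiples of 1 step (largest deviation 5.82e-05), so reads were recovered. Of 18332 gene IDs, 16633 had a symbol. Coordinates are on GRCh37, from a lifted GENCODE annotation.

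Genes that reached 0.5 CPM in 2 or more samples were tested on log2(value + 1) with limma 3.58.1 (lmFit, eBayes with trend, two-sided, R 4.3.3), with Benjamini-Hochberg adjustment over all genes tested. Each line was fitted alone; the interaction and the difference between lines came from 4 group means over 16 samples. The alternatives were pseudocounts of 0.5 and 5, other filters, TMM and quantile rescaling, no moderation, edgeR 4.0.16 and DESeq2 1.42.0 on recovered reads, a transcript length correction, a replicate block and leaving out each sample. The line difference with low-glucose samples only and the permutation test of CA9 were added after seeing the data.

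The 10 genes and the lists were chosen with earlier results of these data known. All 10 were named, and per list and line up to 3 rises and 3 falls among called genes with a mean of at least 50 normalized reads in the higher group, plus the 3 genes most like HIF1A, EPAS1 and CA9.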

Additional observations from a re-analysis of the deposited data

Results flagged for a closer look

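A sample stood apart from its group in 2 of the 39 groups of 4 values tested for the 10 genes, by Dixon's test, which chance alone flags in about 1 in 20 groups. EPAS1 in high-glucose MDA-MB-468 had a lowest value of 1901 normalized reads (replicate 1), and ADM in low-glucose MDA-MB-468 had a highest value of 723.6 (replicate 1). Without either sample both genes were still called in that line.

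The glucose response differed between the lines, as the limma interaction (MDA-MB-468 minus MDA-MB-231, difference of log2 fold changes), for 6 of the 10 genes. These were HIF1A (0.20), CA9 (2.93, below the read filter in MDA-MB-231), VEGFA (-0.15), ADM (-0.33), NDRG1 (0.56) and BNIP3 (0.25).

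The same was found for 27 of the 34 other pathway genes named by the rule above or after their values were seen. Most of these were named because they changed in a line, so that this share is no measure of the pathway. Over the whole lists the response was higher in MDA-MB-468 for 4 and lower for 2 of 14 oxygen-sensing genes, 13 and 2 of 23 glycolysis genes and 13 and 6 of 33 other targets, beside 17.0% and 13.9% of all 17115 genes (30.9% in all). The response was higher in MDA-MB-468 for the glucose and glycogen genes GBE1 (0.49), HK1 (0.44), LDHA (0.17), PFKFB3 (0.65), PFKL (0.33), PGAM1 (0.34), PPP1R3C (0.56), SLC16A3 (0.42), SLC2A1 (0.30) and TPI1 (0.46). It was lower for GYS1 (-0.24) and SLC2A3 (-2.62, under the read filter in high-glucose MDA-MB-468). Among oxygen-sensing genes it was higher for ELOB (0.30, a call lost in 7 of 28 alternatives), HIF1AN (0.26) and RBX1 (0.60) and lower for ARNT (-0.26) and CITED2 (-0.62). Among the other targets it was higher for AK4 (0.61), CA12 (1.99), ERO1A (0.34), LOXL2 (0.49), P4HA2 (0.48) and PLOD1 (0.46), and lower for CCNG2 (-0.42), DDIT4 (-0.24), HMOX1 (-0.50) and PLIN2 (-0.24).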

How the results depend on the processing

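The count of called HIF genes was 7 in MDA-MB-468 and 10 between the lines under each alternative run for them, and 6 or 7 for the difference of the response. In MDA-MB-231 it was 1, but 2 without the filter, which adds CA9, and 2 with a transcript length correction and replicate block together, which adds EPAS1 (0.13, limma adjusted p = 0.0467). It ranged from 1 to 2 with 1 sample left out. Of the values for single genes of the 10 under the alternatives, 919 kept direction and side of the threshold, 14 moved past it and 17 reversed, all of them uncalled; the cause was not tested. Under quantile rescaling the log2 fold change was 0.0238 for VEGFA and 0.0194 for NDRG1 in MDA-MB-231 and -0.0042 for BNIP3 in MDA-MB-468. Under the length correction, with and without the block, it was -0.0112 for BNIP3 in MDA-MB-468 and -0.006 for ANKRD37 in MDA-MB-231. With 1 sample left out, the range included both signs for NDRG1 (-0.0231 to 0.0022), ANKRD37 (-0.0344 to 0.0778) and EGLN3 (-0.1975 to 0.0634) in MDA-MB-231, and for BNIP3 (-0.006 to 0.0575) and HILPDA (-0.0546 to 0.0429) in MDA-MB-468. Same-numbered replicates showed no pairing, with correlations of deviations from -0.04 to -0.0051 in MDA-MB-231 and 0.0167 to 0.0319 in MDA-MB-468. With a replicate block the counts were 1, 7, 7 (EGLN3 gained) and 10. For the other named pathway genes 1593 of 1636 values kept their call, 43 lost it and none reversed; LDHA lost its difference between lines under quantile rescaling (0.01, limma adjusted p = 0.839) and ELOB under the block (0.30, limma adjusted p = 0.0509) and without any 1 of 6 samples (limma adjusted p from 0.0505 to 0.0528). Without moderation 1297 genes were called in MDA-MB-231 in place of 2245, and 7 glycolysis genes in place of 11. Depth limits CA9, which rests on at most 44 reads in a library, and ANKRD37 in MDA-MB-468, which rests on at most 31.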
